A study of Mus musculus with 354 samples.

Results

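Otx1, Otx2 and Helt are transcription factor genes of embryonic patterning, and their rows were examined in sorted cells of the newborn mouse cochlea with and without activated ERBB2. The 3 genes are 3 of the 55367 genes in the count tables, of which 39201 held at least 1 count in some cell. They were chosen by their counts: Otx1 and Helt hold nearly all of their counts in CA-ERBB2 cells, and Otx2 was added as the paralog of Otx1. The difference between genotypes in these genes is therefore a description and carries no test.

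The study asked how ERBB2 signalling within cochlear supporting cells changes their transcriptome, using full-length single-cell RNA-seq of GFP+ cells sorted at postnatal day 3. Pups of both genotypes carried ROSA-floxed-rtTA/GFP together with Fgfr3-iCre. CA-ERBB2 pups also had the transgene TetON-CAERBB2, which their Control littermates lacked. Both genotypes had tamoxifen at 75 mg/kg on the first days after birth and doxycycline at 100 mg/kg on the day before harvest. The planned difference of the Control cells was the missing transgene. Each genotype had 3 plates of 59 cells, and the plate number in the sample names was taken as the replicate. Each plate held 1 genotype, so no plate holds both genotypes for comparison. Each plate pooled the cells of several pups, and Fgfr3-iCre marks supporting cells unevenly along the cochlea and some hair cells as well. Each library is 1 well, so no cell barcodes are shared between libraries.

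OTX proteins are homeodomain transcription factors that define the fore- and midbrain of the embryo, and Otx1 also shapes the inner ear, where its loss disturbs the lateral semicircular canal. Helt is a basic helix-loop-helix repressor of the Hes and Hey family that binds DNA through E-box and N-box motifs and, with Gata2, directs midbrain neurons to a GABAergic fate. None of the 3 is a usual marker of postnatal supporting cells.

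In the annotation of the same genome build (GRCm38), Helt lies on chromosome 8 from 46292039 to 46294671, Otx1 on chromosome 11 from 21994764 to 22002897 and Otx2 on chromosome 14 from 48657677 to 48673819, all 3 on the minus strand and protein coding. The exons of Otx1 cover 5422 bases, those of Otx2 4221 bases and those of Helt 2012 bases. The noncoding gene Otx2os1 runs over part of Otx2 on the opposite strand. The counting used a reverse-strand setting, and whether the kit keeps the strand is not given in the sources used here, so that reads of this pair may not be told apart. RefSeq promoter sequences were matched for 2 of the 3 genes. The 250 bases before the start of Helt (GRCm38.p6, minus strand) are shown because Helt is the member found in the most cells, with the matches to 2 of its family's binding motifs in capitals.

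Helt, chr8:46294672-46294921: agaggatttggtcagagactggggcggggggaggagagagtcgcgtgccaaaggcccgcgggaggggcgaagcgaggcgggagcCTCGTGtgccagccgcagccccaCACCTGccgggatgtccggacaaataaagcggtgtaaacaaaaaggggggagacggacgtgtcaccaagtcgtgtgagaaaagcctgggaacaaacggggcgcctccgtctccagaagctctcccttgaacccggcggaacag

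Searched on both strands, this stretch held 1 N-box (CACNAG, starting at position -166 from the gene start) and 1 E-box (CANNTG, starting at -143), which did not overlap. The N-box letters occurred in 36.7% and the E-box letters in 66.0% of the 27025 promoters of the same length. The letters of an AP-1 site (TGANTCA, 6.87% of promoters), an ETS site (CGGAAG, 13.8%), a TATA box (TATAAA, 13.0%), a TEAD site (GGAATG, 12.6%), a RUNX site (TGTGGT, 14.2%) and an OTX site (TAATCC, 6.38%) were not in this window. These matches describe letters and show no binding. The stretch was 63.6% G and C, against a mean of 53.0% over all promoters.

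The total count was 460173816 over the CA-ERBB2 cells and 415192549 over the Control cells, with a median of 2842085 and 2885635 per cell. The counts are reads and not molecules, so intervals of counts below cover counting error only. Intervals of shares treat cells as independent and leave out the spread between plates. Under 100000 counts were found in 2 CA-ERBB2 and 33 Control cells, 23 of them on Control plate 2. Plates differed in the median number of genes detected per cell, from 10198 on CA-ERBB2 plate 1 to 1742 on Control plate 2. Wells A12 to D12 stood apart on all plates, with a median of 15673 genes detected in the 12 CA-ERBB2 wells against 3269 in the other 165, and the labels list them as cells like the rest. Whether they hold more than 1 cell each was not tested, so that genes found together there may not come from 1 cell, and the main Helt results are also given without them. At least 1 of 8 Deiters cell markers was detected in 85.9% of CA-ERBB2 and 74.0% of Control cells, and at least 1 of 8 pillar cell markers in 91.0% and 76.3%. Both lists hold Serpine2, Ppp1r2 and Igfbpl1. Single markers of these lists were found in 7.34% (Igfbpl1) to 74.6% (Serpine2) of CA-ERBB2 cells, so the shares do not name a cell type. Erbb2, whose row may also hold reads of the transgene, stood at 105.9, 45.9 and 119.4 CPM (counts per 1000000 counts, here of plate sums with TMM scaling) on the CA-ERBB2 plates and at 19.8, 3.23 and 12.3 CPM on the Control plates. The groups did not overlap for Erbb2, but how many of all genes separate in this way was not counted. For Erbb2, edgeR's quasi-likelihood test gave a log2 fold change of 2.94 ± 0.76 (SE) with an adjusted p of 0.774.

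**Figure D1:**
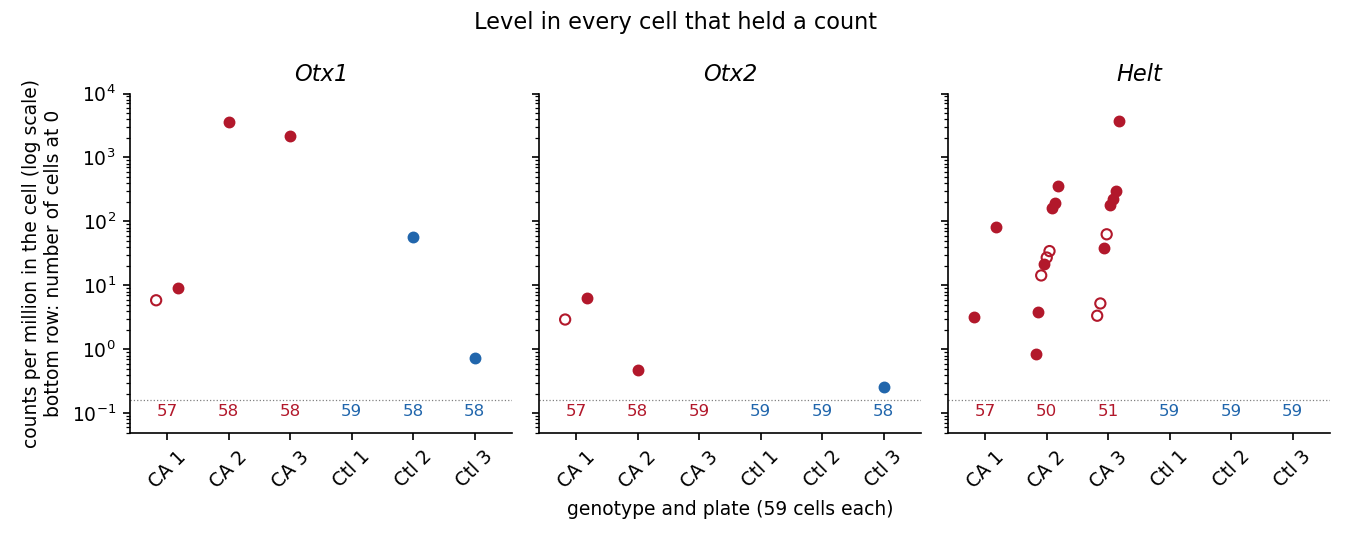
CPM (log scale) of Otx1, Otx2 and Helt in each cell that held a count, by genotype (CA, CA-ERBB2; Ctl, Control) and plate, with open circles for wells A12 to D12 and the number of cells at 0 along the bottom. Otx1 stood above 100 CPM in 2 cells and Helt in 7, all CA-ERBB2, and Helt was at 0 in all Control cells, 59 on each of 3 plates.

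Helt was found in 19 CA-ERBB2 cells and in no Control cell, of 59 cells on each of 3 plates per genotype. The CA-ERBB2 share was 10.7% (exact 95% interval 6.59 to 16.3%), and a count of 0 over the Control cells allows a share of up to 1.69% by the 3-count limit and 2.06% by the exact interval. On CA-ERBB2 plates 1, 2 and 3 Helt was found in 2, 9 and 8 of 59 cells, or 3.39%, 15.3% and 13.6%, a mean of 10.7% ± 6.42 (SD, n = 3 plates). The counts were 299, 2857 and 7747, which gave 1.20, 26.1 and 85.7 CPM with TMM scaling (37.7 ± 43.4, SD, n = 3). All 3 CA-ERBB2 plates were above 0 and all 3 Control plates were at 0. Helt was chosen by these counts, so this separation is a description. Against the 3 counts that a Control total of 0 allows if reads are independent, Helt was at least 3280-fold higher over the summed CA-ERBB2 cells. The limit leaves out the spread between cells, 1 of which held 40.0% of the Helt counts. This lower limit was 1970-fold without the cell with the most Helt, 1330-fold without CA-ERBB2 plate 3 and 5400-fold without CA-ERBB2 plate 1. Per kilobase of exon, the level over the summed CA-ERBB2 cells was 11.8 CPM for Helt, 4.48 CPM for Otx1 and 0.0165 CPM for Otx2.

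The Helt counts were spread over many cells, yet unevenly. The cell in well E7 of plate 3 held 4361 of the 10903 counts, or 40.0%, at 3670 CPM. The next cells held 1324 counts (plate 2, C2), 1137 (plate 3, C5), 1038 (plate 3, D10), 826 (plate 3, A5), 705 (plate 2, B2) and 520 (plate 2, D4). These 7 cells were the ones at or above 100 CPM, and together they held 90.9% of the counts. On plate 1 the 2 cells held 289 counts (A8) and 10 counts (B6). Of the 19 cells, 18 held at least 10 counts and 1 cell on plate 2 held a single count. Among the 5510 genes with 5000 to 20000 counts in CA-ERBB2 cells, the top cell held a median of 14.9% of a gene's counts, and it held at least the share it held for Helt in 11.5% of them.

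Depth differed among these cells. The 7 cells at or above 100 CPM of Helt had a median of 3110 genes detected (range 561 to 6675), and the 12 below that level a median of 10662 (range 994 to 17126). Of the 12 cells below 100 CPM, 6 were in wells A12 to D12, whereas none of the 7 above it was. Without wells A12 to D12 on all plates, Helt was found in 13 of 165 CA-ERBB2 cells, or 7.88%. When every cell of at least 100000 counts was thinned to that number, Helt was found in 18 of 175 CA-ERBB2 cells and in 0 of 144 Control cells, which allows up to 2.08%.

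How common such a pattern was among other genes was counted over the 39201 genes with a count. Only 4 genes, or 0.0102%, were found in at least 19 CA-ERBB2 cells and in no Control cell, and in the reverse direction the number was 0. Since Helt was chosen for this pattern, nothing is read from its place among them. The other 3, named after their values were seen, were Il12a (29 cells), which encodes a subunit of interleukin 12, F2rl3 (22 cells), which encodes a thrombin receptor, and Fetub (21 cells), which encodes the protease inhibitor fetuin B. F2rl3 shared 12 cells with Helt and Il12a shared 11, whereas Fetub shared 2. Fetub was found mainly on plate 1, in 16 of its 21 cells, where Helt was found in 2 cells.

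Helt was then set against 4 genes of the extracellular matrix that the study had singled out: Spp1, which encodes the secreted phosphoprotein osteopontin, Dmp1, a matrix protein of bone and dentin from the same family, Mmp9, a gelatinase, and Timp1, an inhibitor of such proteases. A cell was counted for a gene at 100 CPM or more. These 4 genes were themselves picked from these cells, so they are not an independent readout. All 4 passed that level in 36 cells of CA-ERBB2 and in none of Control. Of the 36 cells, 15 held Helt (41.7%, exact interval 25.5 to 59.2%), against 4 of the other 141 CA-ERBB2 cells (2.84%, 0.778 to 7.10%).

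The direction was the same on each plate. With all 4 matrix genes, 1 of 3 cells on plate 1, 7 of 14 on plate 2 and 7 of 19 on plate 3 held Helt. With fewer than 4, the numbers were 1 of 56, 2 of 45 and 1 of 40. The difference in share was 31.5, 45.6 and 34.3 percentage points, or 37.1 ± 7.41 (SD, n = 3 plates). An exact two-sided permutation test paired within the 3 plates gave p = 0.25, the smallest that 3 pairs allow. The test could not have come under 0.05, so nothing is read from it. Of 121 cells with 0 or 1 of the matrix genes, 1 cell held Helt, with 1 count. In cells thinned to 100000 counts the shares were 38.9% of 36 and 2.88% of 139, and without wells A12 to D12 Helt was in 10 of 28 cells (35.7%) and 3 of 137.

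**Figure D2:**
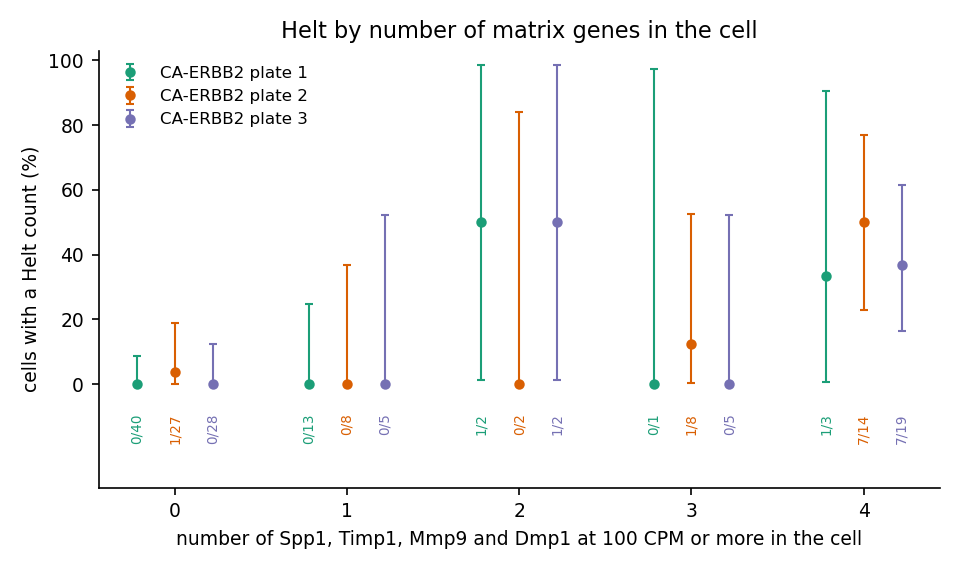
Share of CA-ERBB2 cells with a Helt count (percent, with exact 95% binomial intervals that cover counting error only), by the number of Spp1, Timp1, Mmp9 and Dmp1 at 100 CPM or more in the cell and by plate, with cells holding Helt over all cells printed under each point. Cells with all 4 genes held Helt in 1 of 3, 7 of 14 and 7 of 19 cases, and cells with none in 0 of 40, 1 of 27 and 0 of 28.

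The cells that held Helt were high for Spp1 almost without exception. In 18 of the 19 cells Spp1 was between 4505 and 298400 CPM, and the remaining cell was the one with 1 Helt count, at 0.846 CPM of Spp1. Timp1 had a median of 19830 CPM over the 19 cells, Mmp9 a median of 5057 CPM and Dmp1 a median of 683 CPM. The cell with the most Helt was not among the 36: in well E7 of plate 3 Spp1 was at 69700 CPM and Timp1 at 92410 CPM, whereas Dmp1 was at 3.37 CPM and Mmp9 at 0. The plate 1 cell in well A8 had 5152 CPM of Spp1 and 103.7 CPM of Timp1, with Mmp9 at 70.7 CPM and Dmp1 at 0.

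**Figure D3:**
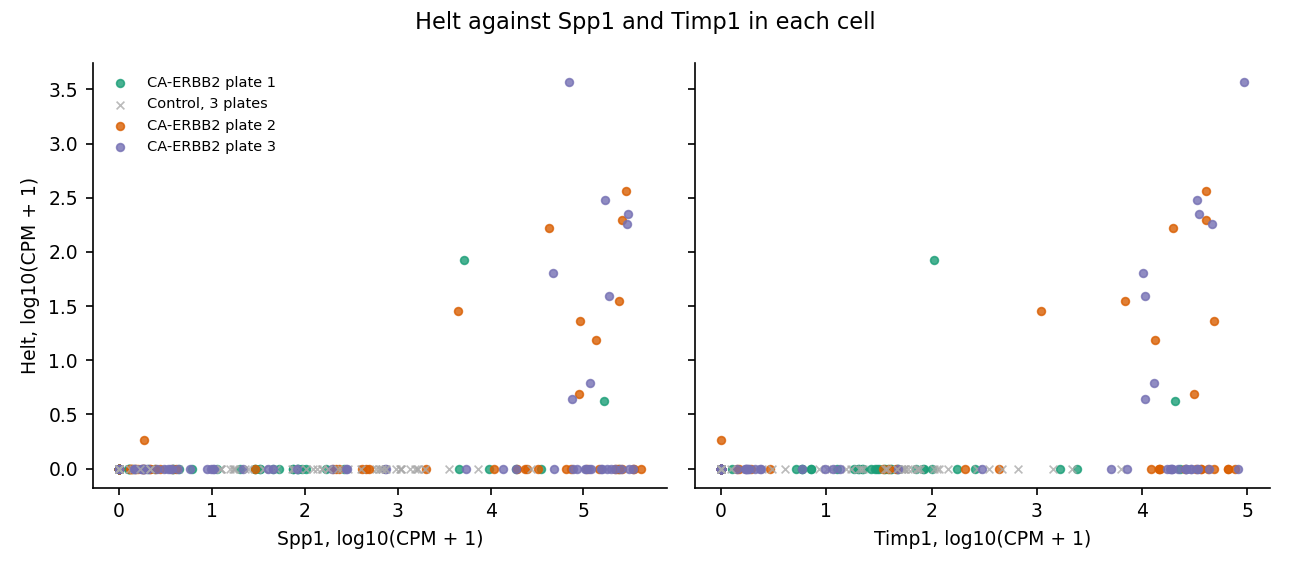
Helt against Spp1 (left) and Timp1 (right) in each cell, both on a log10(CPM + 1) scale, with CA-ERBB2 cells coloured by plate and Control cells as grey crosses. All but 1 of the 19 cells above 0 for Helt lie at the high end for Spp1, and many cells at that end are at 0 for Helt.

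Among the 36 cells with all 4 matrix genes, the 15 with Helt and the 21 without it overlapped widely. Spp1 ranged from 42660 to 298400 CPM with Helt (median 168300) and from 11000 to 419500 CPM without it (median 158800). Median Timp1 was 20490 CPM with Helt and 23200 CPM without it, median Mmp9 5959 and 3432 CPM, and median Dmp1 4651 and 1649 CPM. Total counts were alike, with medians of 3406199 and 3352229, but the cells with Helt had more genes detected, at a median of 6675 against 2939. Erbb2 was above 0 in 11 of the 15 and in 11 of the 21, with medians of 41.2 and 0.268 CPM. Over all CA-ERBB2 cells Erbb2 was found in 63.2% of the 19 cells with Helt and in 44.3% of the others. Without wells A12 to D12, the median number of genes detected was 3198 in the 10 cells with all 4 matrix genes and Helt and 2469 in the 18 without Helt, and Erbb2 was above 0 in 7 of the 10 and 8 of the 18. Over all CA-ERBB2 cells outside those wells, Erbb2 was found in 53.8% of the 13 with Helt and in 42.1% of the others. The part that the number of genes detected has in these differences was not tested.

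Markers of cell types were summed in the cells with Helt, as CPM over each list. Those of the medial greater epithelial ridge (Calb1, Crabp1, Epyc, Itm2a, Stmn2) summed to above 0 in all 19 cells, at a median of 1105 CPM (range 197.8 to 19130). All 5 markers were detected somewhere among the 19 cells, not in each cell, and the numbers of markers detected below are likewise over the group. The median was 107.9 CPM (0 to 6795) in the other CA-ERBB2 cells, 70.5 CPM (0 to 21560) in Control cells and 517 CPM (0 to 6614) in the 21 cells with all 4 matrix genes and no Helt. Without wells A12 to D12 these 4 medians were 1117, 93.2, 51.9 and 546 CPM. Here and below, the other CA-ERBB2 cells are all those without Helt. They include the cells with all 4 matrix genes and no Helt, so these 2 groups overlap. For the mesenchyme, Deiters cell, pillar cell and outer sulcus lists, the cells with all 4 matrix genes and no Helt lay near the cells with Helt. The Deiters and pillar cell lists share Serpine2, Ppp1r2 and Igfbpl1, so their sums overlap. Otic mesenchyme markers (5 of 5 detected) had medians of 4491 CPM (16.0 to 10490) with Helt, 2082 CPM (0 to 67530) in the other CA-ERBB2 cells, 989 CPM (0 to 27720) in Control cells and 3279 CPM (0 to 11060) in the cells with all 4 matrix genes and no Helt. Deiters cell markers (8 of 8 detected) had medians of 3739 CPM (0 to 34900), 1340 CPM (0 to 48910), 912.5 CPM (0 to 19210) and 3273 CPM (0 to 7237) in the same 4 groups, and pillar cell markers (8 of 8) 4212 CPM (0.842 to 34900), 1979 CPM (0 to 48910), 1089 CPM (0 to 30330) and 3390 CPM (0 to 7964). Outer sulcus markers were lower, with medians of 0 (0 to 14660), 371 CPM (0 to 18240), 328 CPM (0 to 41260) and 0 (0 to 1231). Interdental cell markers were lower as well, at medians of 229 CPM (0 to 3844), 440 CPM (0 to 48180), 425 CPM (0 to 26670) and 54.6 CPM (0 to 3021). Lateral greater epithelial ridge markers had medians of 1805, 1820, 1398 and 1886 CPM. Hair cell markers had a median of 0 in the cells with Helt and of 0.806 CPM in the other CA-ERBB2 cells. The part of cell type in the Helt counts was not tested.

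The genes whose levels followed Helt most closely were ranked over all CA-ERBB2 cells by Pearson's r of log2(CPM + 1), among 22642 genes with a count in at least 5 of these cells. The cells share plates and depth, so these values describe likeness and have no p. The first 10 were Gm34432 (r = 0.544), Rpl36-ps9 (0.482), F2rl3 (0.480), Fam20c (0.443), Madcam1 (0.438), Timp1 (0.436), Akr1c18 (0.433), Tmem37 (0.430), Gm8543 (0.423) and Actg2 (0.421). Fam20c encodes the Golgi kinase that phosphorylates secreted proteins such as osteopontin, Madcam1 a mucosal cell adhesion molecule, Akr1c18 a steroid dehydrogenase, and Actg2 the gamma actin of smooth muscle. Spp1 (0.417), Dmp1 (0.395) and Mmp9 (0.375) came close behind, whereas Erbb2 itself had an r of 0.0885.

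These 10 genes differed in what their r rested on. Fam20c was found in 16 of the 19 cells with Helt (84.2%) and in 44.3% of the other CA-ERBB2 cells, Tmem37 in 18 (94.7%) and 44.3%, and Actg2 in 13 (68.4%) and 11.4%. F2rl3 was found in 12 of the 19 cells (63.2%) and in 6.33% of the others, and Madcam1 in 5 of the 19 (26.3%) and in 0.633%. Without the cell in well E7, F2rl3 went to r = 0.545, Madcam1 to 0.494 and Actg2 to 0.457. Gm8543 shared only that 1 cell with Helt and went to -0.0678 without it, and the pseudogene Rpl36-ps9 shared 2 cells and went to 0.260. Centring each gene within its plate moved these values little, to between 0.410 (Actg2) and 0.544 (Gm34432). Without wells A12 to D12, F2rl3 had an r of 0.454, Fam20c of 0.426, Timp1 of 0.407 and Actg2 of 0.370, while Madcam1 was in too few cells to be ranked, and 7 of the 10 genes stayed among the first 10.

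**Figure D4:**
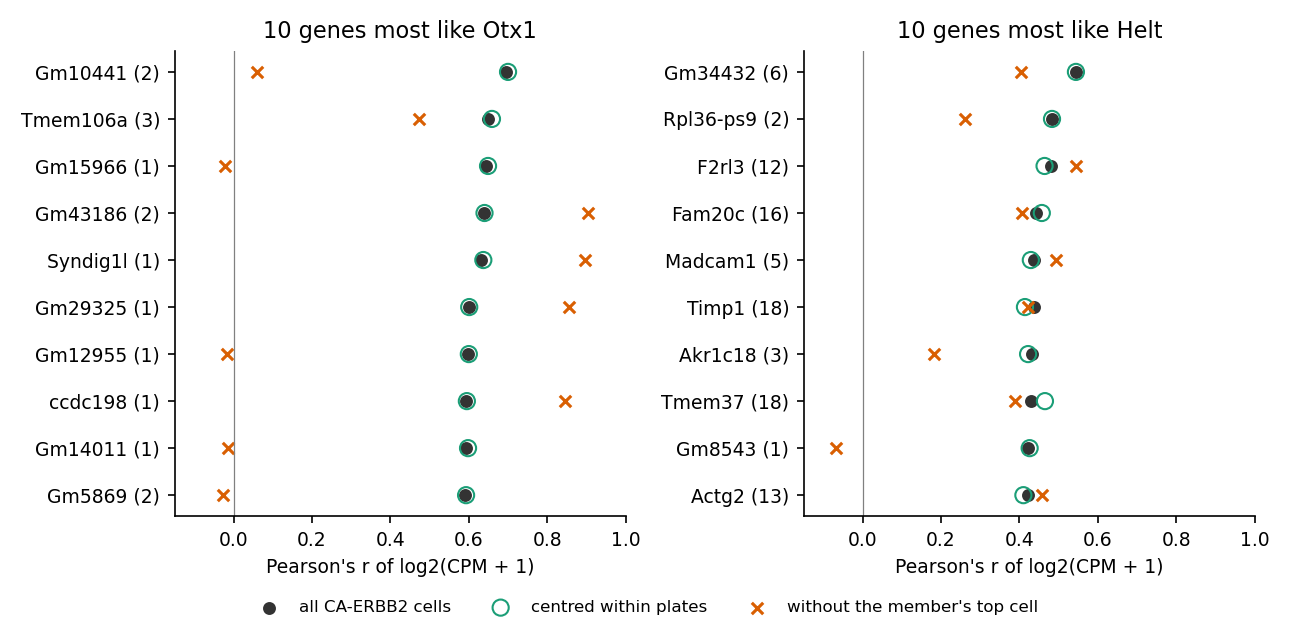
Pearson's r of log2(CPM + 1) with Otx1 (left) and Helt (right) over all CA-ERBB2 cells for the 10 genes most like each, as measured, after centring within plates, and without the cell holding the most counts of the member, with the number of shared cells in brackets. For Otx1, r without the top cell falls between -0.0269 and 0.905, while for Helt, Gm34432, F2rl3, Fam20c, Madcam1, Timp1, Tmem37 and Actg2 keep an r above 0.38.

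Otx1 had as many counts as Helt but in far fewer cells. It was found in 4 CA-ERBB2 cells (2.26%, exact interval 0.619 to 5.68%) and in 2 cells of the Control group (1.13%, 0.137 to 4.02%). The CA-ERBB2 cells held 6940 counts (plate 2, well A3, 3535 CPM), 4182 counts (plate 3, E2, 2151 CPM), 39 counts (plate 1, A4, 9.12 CPM) and 20 counts (plate 1, D12, 5.85 CPM). The 2 Control cells held 1 count each, 1 of them a cell of plate 2 with 17576 counts in all, 213 genes detected and 59.3% mitochondrial counts. The cells in wells A3 and E2 held 99.5% of the 11181 CA-ERBB2 counts, and on plates 2 and 3 each was the only one of 59 wells above 0.

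By plate, Otx1 was at 0.236, 63.3 and 46.3 CPM with TMM scaling in CA-ERBB2 (36.6 ± 32.6, SD, n = 3) and at 0, 0.00838 and 0.00826 CPM in Control. Every CA-ERBB2 plate was above every Control plate, yet without those 2 cells the CA-ERBB2 mean was 0.0787 CPM. How many of all genes separate by plate in this way was not counted. The ratio of the CPM over summed cells was 5040, with an exact counting interval of 1400 to 41700, which treats reads as independent although 2 cells gave nearly all of them. Among the 5510 genes of like count in CA-ERBB2 cells, 15, or 0.272%, had at least as large a share in their top 2 cells, where the median gene had 24.2%. Otx1 was chosen for its counts, so its place among them is a description.

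The 2 cells with most Otx1 shared some markers and differed in others. Well A3 had 1786 genes detected and E2 had 1891, with 1963111 and 1944074 counts and 4.14% and 2.29% mitochondrial counts. Both held otic mesenchyme markers: Col1a2, a collagen chain, was at 5233 CPM in A3 and 5056 CPM in E2, and Lum, which encodes lumican, at 1563 and 21890 CPM, where the medians of Col1a2 over the 2 plates were 172 and 357 CPM and those of Lum 35.2 and 45.4 CPM. Neither gene was particular to these cells. Col1a2 was detected in 134 CA-ERBB2 and 116 Control cells, and Lum in 119 and 86. Of the 5 mesenchyme markers, Pou3f4 and Col1a1 were at 0 in A3 and Pou3f4 in E2. Of the 8 Deiters cell markers, A3 held 2 and E2 held 1, at summed levels of 1727 and 3624 CPM, and of the 8 pillar cell markers they held 2 and 3, at 833 and 8126 CPM. The Deiters cell sum of E2 was Serpine2 alone, which the pillar cell list also holds. Other lists were not at 0 either: interdental cell markers summed to 2771 CPM in A3 (1 of 5 markers) and 2235 CPM in E2 (4 of 5), outer sulcus markers to 934 and 2955 CPM (2 of 5 in each), lateral greater epithelial ridge markers to 2094 and 1808 CPM (1 and 3 of 6), and hair cell markers to 0 and 2031 CPM (0 and 2 of 10). Glia markers summed to 1282 CPM in A3 and 0 in E2, and neuron markers to 345 and 5.14 CPM. Endothelium markers summed to 270 and 0 CPM, Oc90 cell markers to 0 and 200 CPM, and medial greater epithelial ridge markers to 2.04 and 0 CPM. Macrophage, melanocyte and Hensen cell markers were at 0 in both.

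The following genes of these cells were named after their values were seen. S100b, a calcium-binding protein of pillar cells and glia, was at 832 CPM in A3 and 604 CPM in E2, and Dcn, which encodes decorin, at 2094 and 554.5 CPM. In contrast, S100a1 (1727 CPM) and Ptgds (2771 CPM) were high in A3 and at or below 1 count in E2, whereas Cryab (3898 CPM) and Serpine2 (3624 CPM) were high in E2 and at or below 1 count in A3. The 2 cells had 412 detected genes in common. How many genes other pairs of cells of like depth share was not counted, so this number does not show a likeness.

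Neither of the 2 cells held the matrix genes together. A3 had Spp1 at 23630 CPM with Timp1, Mmp9, Dmp1 and Erbb2 at 0, and E2 had all 5 at 0. Of the 4 CA-ERBB2 cells with Otx1, only the one in well D12 of plate 1, with 20 counts of Otx1 and 19522 genes detected, the most of any cell, passed 100 CPM for all 4 matrix genes. No cell held both Otx1 and Helt.

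The genes most like Otx1 rested on very few cells. The first 10 of 22643 genes were Gm10441 (r = 0.694), Tmem106a (0.650), Gm15966 (0.644), Gm43186 (0.638), Syndig1l (0.632), Gm29325 (0.601), Gm12955 (0.597), ccdc198 (0.594), Gm14011 (0.594) and Gm5869 (0.590), and 6 of the 10 shared a single cell with Otx1. Tmem106a, a membrane protein of macrophages, shared 3 of its 18 cells and stood at 1883 CPM in A3 and 321 CPM in E2, with 5683 counts in CA-ERBB2 and 5234 in Control cells. Without the cell in A3, r went to 0.473 for Tmem106a and to 0.0593 for Gm10441, while Gm43186 went to 0.905 and Syndig1l to 0.896.

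Otx2 was hardly detected. Its counts in CA-ERBB2 cells were 21 (plate 1, well C8, 6.28 CPM), 10 (plate 1, D12, 2.92 CPM) and 1 (plate 2, D5), and 1 Control cell on plate 3 held 1 count. The shares were 1.69% (exact interval 0.351 to 4.87%) of CA-ERBB2 and 0.565% (0.0143 to 3.11%) of Control cells. By plate Otx2 was at 0.124, 0.00912 and 0 CPM in CA-ERBB2 and at 0, 0 and 0.00826 CPM in Control, so the groups overlapped. The ratio of the CPM over summed cells was 28.9, with an exact counting interval of 4.82 to 1180. The cell in well D12 of plate 1 was the only one with both Otx1 and Otx2, and no cell held Otx2 and Helt. Otx2os1 held 24 counts in 1 CA-ERBB2 cell of plate 1, which had no Otx2. Otx2 was in too few cells for genes to be ranked by likeness and did not pass the filter on low counts, whereas Otx1 and Helt did.

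In order of level, Helt (37.7 ± 43.4 CPM, SD over 3 CA-ERBB2 plates) and Otx1 (36.6 ± 32.6) did not differ beyond the spread of the plates, and Otx2 was lowest at 0.0444 ± 0.0691 CPM. Plate 1 was lowest of the 3 CA-ERBB2 plates for Otx1 and Helt and highest for Otx2. Over the whole table, the edgeR test on sums per plate called 1 of 21416 genes between the genotypes (0.00467%), the protease inhibitor Serpinb2, which was higher in CA-ERBB2. Before adjustment 1106 genes had a p under 0.05.

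The other genes of the Hes and Hey family were not called. Of 11 listed, 8 were tested, 0 passed, 1 had an unadjusted p under 0.05, and the median log2 fold change was 0.13, beside -0.02 over all genes tested. Hes1, the most abundant of them and a target of Notch signalling, was at 222.5, 161.5 and 245 CPM on the CA-ERBB2 plates and at 143, 170 and 179 CPM on the Control plates, with a log2 fold change of 0.36 ± 0.45 (SE) and an adjusted p of 0.958 by edgeR. Hes6 had the lowest estimate, at 28.5, 1.41 and 4.08 CPM against 23.2, 154 and 60.8 CPM (log2 fold change -2.81 ± 1.10, adjusted p = 0.911), and Hey2, a repressor of the Hey group, the highest (1.63 ± 0.93, adjusted p = 0.913). Hey1 had a log2 fold change of 0.66 and Hes5 of -0.04. Hes1 was found in 73.7% of the cells with Helt and in 55.1% of the other CA-ERBB2 cells, and Hey2 in 26.3% and 20.3%. The cells with Helt had more genes detected, at a median of 6675 against 3771 over all CA-ERBB2 cells. Of the 19, 6 were in wells A12 to D12. The part of depth in these shares was not tested.

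Genes that work beside OTX proteins in the head were low or unseen. Of 20, only 4 had counts enough for the test, 0 passed, and all 4 estimates were below 0, with a median log2 fold change of -0.40. Emx2, which patterns the cochlea and the cortex, had a log2 fold change of -0.21 ± 1.24 (SE), Mitf, the melanocyte regulator, -0.40 ± 1.03, and Pax6, an eye and forebrain regulator, -0.40 ± 1.46, with adjusted p-values by edgeR between 0.981 and 0.991. None of the 20 was detected in the cells of wells A3 and E2. Of the 20 genes, 9 were detected somewhere among the 19 cells with Helt. Gsc, which encodes the homeodomain protein goosecoid and was named after its values were seen, was found in 6 CA-ERBB2 cells and 3 Control cells. Of the 6, 3 were among the 19 with Helt, which had a median of 6675 genes detected. The part of depth was not tested.

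Among 13 genes of GABAergic neurons, the fate that Helt directs in the midbrain, 8 were tested and 0 passed, with 0 at an unadjusted p under 0.05 and a median log2 fold change of -0.19. Gata2, which acts with Helt there, was at 8.92, 14.3 and 26.1 CPM in CA-ERBB2 and at 15.6, 28.4 and 5.12 CPM in Control, and was found in 2 of the 19 cells with Helt (10.5%) and in 20.3% of the other CA-ERBB2 cells. Gata3, its paralog in the ear, was at 125.1, 111.0 and 93.8 CPM against 134, 55.2 and 240 CPM. Gad1 and Gad2, which make GABA, were each found in 2 of the 19 cells, and Slc32a1, which loads it into vesicles, in none. Zfpm1 and Zfpm2, cofactors of GATA proteins, had log2 fold changes of 1.52 and -1.03, and Tal2 and Tal1, partners of GATA proteins in midbrain neurons, of 4.50 ± 2.73 and -1.78 ± 1.86 (SE).

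Of 21 transcription factors that pattern the ear, 18 were tested and 0 passed, 1 had an unadjusted p under 0.05 (Hmx3), 5 estimates were above 0, and the median log2 fold change was -0.21. Sox9 (0.33 ± 0.56, SE), Eya1 (-0.01 ± 0.52) and Nr2f1 (-1.18 ± 0.55) were the most abundant, with adjusted p-values by edgeR between 0.911 and 0.999. Hmx3, a homeobox gene of the vestibular ear, was detected in 3 CA-ERBB2 cells and in none of Control, at 0.060, 0.119 and 11.3 CPM on the CA-ERBB2 plates, and its adjusted p was 0.862. Dlx6 had the lowest estimate, at -1.21 ± 1.34. In the cells of wells A3 and E2, 3 of the 21 were detected, among them Sox9 at 11.2 CPM in A3 and Pax8 at 0.514 CPM in E2.

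None of the genes tested within 200 kb of the start of a member was called. Near Helt, Slc25a4, the ADP/ATP carrier of mitochondria, had 431754 CA-ERBB2 and 332212 Control counts (log2 fold change 0.68, adjusted p = 0.923 by edgeR), Acsl1, an acyl-CoA synthetase, had a log2 fold change of 0.32, Snx25 of -0.90 and Cfap97 of 0.21. Gm39168, the noncoding gene nearest to the start of Helt on the opposite strand, held 3 counts in 1 CA-ERBB2 cell that also held Helt. Near Otx1, Ehbp1 had a log2 fold change of -0.33 (adjusted p = 0.979) and Wdpcp, a planar cell polarity and cilium gene, of 0.84 (adjusted p = 0.953). Near Otx2, Tmem260 had a log2 fold change of -0.62 (adjusted p = 0.947), and Gm534 held 29 counts in 2 CA-ERBB2 cells and none in Control.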

How the data were processed

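Per the labels, GFP+ cells were sorted into plates, and full-length cDNA libraries were sequenced. The authors trimmed the reads, aligned them with STAR (2.7.6a) and counted them per gene with featureCounts of Subread (2.0.1). Each deposited table holds raw counts per gene for 1 cell, with no molecular identifiers, and the authors' cell filter and Seurat (4.0.4) scaling are not applied in it. All 354 cells were kept, and no doublet caller was run.

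Cells are not replicates, so counts were summed per plate (3 against 3) and tested with edgeR's quasi-likelihood test (edgeR 4.0.16, R 4.3.3, TMM scaling, low-count filter, p adjusted by Benjamini-Hochberg under 0.05 together with an absolute log2 fold change over 1), which was tested on simulated data first. The number in a sample's name was taken as its plate, which the labels do not say in words, and p-values measure only the spread between the plates of a genotype. CPM values were computed per cell and per plate sum. Shares have exact 95% binomial intervals, and 3 counts, or 3 cells, stand for the limit of a 0. Thinning drew 100000 counts per cell. Likeness was computed with numpy 2.4.6 on log2(CPM + 1), a scale that understates changes of low values.

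The members and lists were chosen with earlier results of these data known. Named besides the members were Erbb2, Spp1, Timp1, Mmp9 and Dmp1, the 10 genes most like Otx1 and Helt, neighbours within 200 kb, and from each list the called genes or else up to 4 of the highest members and the largest fold each way. A few others are marked as named after their values were seen, or stand in their list or cell, and a few that the rule names are not reported here. The alternatives covered scaling, filters, the replicate block, DESeq2 1.42.0, detection limits, thinning and plates left out. Sequences and coordinates are from RefSeq and Gencode on GRCm38.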

Additional observations from a re-analysis of the deposited data

How the results depend on the processing

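Of 84 alternatives for 13 results, 68 moved the value by less than the spread between plates, the interval or the limit of 1.5 times set for it, and 16 by more. Because the plates differed widely, 9 of the 68 still changed the value by over 1.5 times. The count of genes called between the genotypes was 1 with the edgeR test and 1 with the plate number as a replicate block. Same-numbered plates of the 2 genotypes deviated together by r = 0.212, 0.0822 and 0.0837, and plates of unlike number by -0.113 to 0.00859. The block added no call, which does not decide whether the numbers pair the plates. With no filter on low counts 285 of 39201 genes were called (184 of them higher in CA-ERBB2), and DESeq2 called 235 of 18827 genes with an adjusted p (129 higher). Leaving out 1 plate at a time gave 0 to 2 genes, with 0 without Control plate 1 (1503 genes at an unadjusted p under 0.05) or Control plate 3 (1189), and 2 without CA-ERBB2 plate 1. The cause was not tested.

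The share of CA-ERBB2 cells with Otx1 was 1.13% at 10 CPM or more, and the mean of Otx1 over the CA-ERBB2 plates was 0.0787 CPM without the 2 cells with most counts, an alternative chosen after seeing the data. The share of CA-ERBB2 cells with Otx2 was 0 at 10 CPM or more, 0.571% after thinning, and 0.847% and 2.54% without CA-ERBB2 plates 1 and 3, and the mean of Otx1 was 23.3 CPM without CA-ERBB2 plate 2. Without the top Helt cell, also chosen afterwards, the mean of Helt was 21.7 CPM, and without CA-ERBB2 plate 3 it was 13.6 CPM. The mean of Otx2 was 0.00456 CPM without CA-ERBB2 plate 1 and 0.0166 CPM without its top cell. The share of cells with Otx1 that had all 4 matrix genes went from 1 of 4 to 0 with the matrix genes at 1000 CPM, with Otx1 at 10 CPM or more, and without wells A12 to D12, since 1 cell made it up. The share of cells with Helt that had all 4 went from 78.9% to 47.4% at 1000 CPM. Of the 10 genes most like Otx1, 1 stayed with Spearman's correlation, 3 among genes found in 10 or more cells and 4 without the top cell, and of those most like Helt, 3 stayed with Spearman's correlation and 3 without the top cell. With 2 wells behind 99.5% of the Otx1 counts in CA-ERBB2, the number of cells limits the precision of its mean.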
